A study of Mus musculus with 2 samples.

Results

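The angiopoietin and Tie receptor genes described here are Angpt1, Angpt2, Tek, Tie1 and Ptprb, chosen by symbol and followed across the cell classes of the mouse glomerulus. These 5 genes were found in both count matrices among 31053 genes with Ensembl identifiers, and each was found once. Angpt1 lies on chromosome 15 (42424723 to 42676977, minus strand), Angpt2 on chromosome 8 (18690263 to 18741562, minus strand), Tek on chromosome 4 (94739289 to 94874976, plus strand), Tie1 on chromosome 4 (118471191 to 118490061, minus strand) and Ptprb on chromosome 10 (116275523 to 116389535, plus strand), all in GRCm38. These positions are those of the complete gene, and the matrices hold no split by exon, intron or UTR.

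Angiopoietin 1 is the activating ligand of the receptor tyrosine kinase Tie2, which Tek encodes and which keeps endothelial cells quiescent through Akt. Angiopoietin 2 is a context-dependent ligand that can block or weakly activate the same receptor. Tie1 is a related receptor with no angiopoietin ligand of its own that pairs with Tie2 and tunes its signal. Ptprb encodes the phosphatase VE-PTP, which removes phosphate from Tie2 and holds VE-cadherin junctions together. In the glomerulus, podocytes cover the outside of the capillary wall, and mesangial cells lie between the capillary loops.

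Single-cell RNA sequencing with 3' chemistry was carried out on dissociated kidney glomeruli of 1 mouse labelled female and 1 mouse labelled male. Both were healthy C57Bl/6 mice with the genotype Pax2.rtTA;TetO.Cre;R26.Confetti, in which a Pax2-driven doxycycline-dependent activator switches on Cre and a multicolour reporter. Both received doxycycline at 19 days of age and were killed at 30 days. Each label therefore has 1 library, and no difference between the libraries has a replicate check.

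The libraries held 5233 barcodes with 67648465 UMIs (unique molecular identifiers, which count captured transcripts once each) for the label female, and 4974 barcodes with 57841860 UMIs for the label male. After filters, 4905 and 4441 cells remained, with medians of 10672 and 9612 UMIs, and 7 of their barcodes occurred in both libraries. The sex labels went against the data: Xist was at 0.683 CPM and the Y-linked genes at 213.8 CPM in the library labelled female, against 1593 and 0.0206 CPM in the library labelled male. The label is kept as a name only. Brackets hold 95% intervals, which cover counting error of summed UMIs only and not differences between cells or between animals.

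Cells were grouped into 18 clusters without using the 5 genes, and clusters were named from marker lists. The library labelled female gave 44 smooth muscle or renin-like, 240 mesangial-like, 112 glomerular endothelial-like, 83 arterial endothelial-like and 3635 podocyte-like cells, and the library labelled male gave 62, 174, 89, 83 and 3137. Markers were at 50 CPM or more for 9 of 9 mesangial, 8 of 8 glomerular endothelial and 11 of 11 podocyte genes in both libraries, for 8 and 7 of 8 smooth muscle or renin genes, and for 5 and 6 of 8 arterial endothelial genes. Arterial endothelial-like cells also held 7 and 6 of the 8 glomerular endothelial markers at 50 CPM or more, and the endothelial classes differed in the summed levels of both lists. The arterial list summed to 2204 and 1941 CPM in arterial endothelial-like cells, against 980.1 and 1059 CPM in glomerular endothelial-like cells, where 5 and 5 of its 8 genes counted. The glomerular list summed to 12950 and 10960 CPM in glomerular endothelial-like cells, against 2843 and 3027 CPM in arterial endothelial-like cells. Podocyte markers at 50 CPM or more numbered 11 and 11 of 11 in arterial endothelial-like, 10 and 10 in smooth muscle or renin-like and 10 and 10 in thick ascending limb-like cells. Their summed levels were 6859 and 7652 CPM, 5201 and 3359 CPM, and 5591 and 5791 CPM in these classes, against 25050 and 27200 CPM in podocyte-like cells. Mesangial-like cells held 10 and 8 of these markers at that level (summed 3788 and 1726 CPM). Parietal epithelial-like cells held 9 and 8 (1572 and 843.3 CPM), and glomerular endothelial-like cells 5 and 4 (1710 and 1520 CPM). The smooth muscle or renin-like cluster was led by Ren1, the renin gene of juxtaglomerular cells. Parietal epithelial-like cells (72 and 49) and thick ascending limb-like cells (61 and 91) were followed as well. The thick ascending limb-like cluster is mixed: 4 of 4 distal convoluted tubule markers were at 50 CPM or more in both libraries, and at a finer clustering it was named as 84 thick ascending limb-like and 68 distal convoluted tubule-like cells.

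Levels are given as CPM, the UMIs of a gene scaled to the total UMIs of its class by the usual factor. Where 2 values of 1 class stand side by side, they are those of the libraries labelled female and male. A 3' UMI count is not scaled by transcript length, so levels are compared between classes for 1 gene and not between genes. The 5 genes differed in depth: Ptprb had 4297 and 2995 UMIs in all kept cells, Tek 1019 and 649, Tie1 630 and 396, Angpt2 650 and 635, and Angpt1 only 106 and 128. The plot of levels by cell class shows all 5 genes. Both ligands had their highest levels outside the endothelium, and the receptors and the phosphatase were high in both endothelial classes. Angpt1 rested on few UMIs. Its levels in arterial endothelial-like cells came from 3 and 4 of 83 cells and lay above those in podocyte-like cells. Their intervals overlapped those of mesangial-like cells in both libraries.

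**Figure D1:**
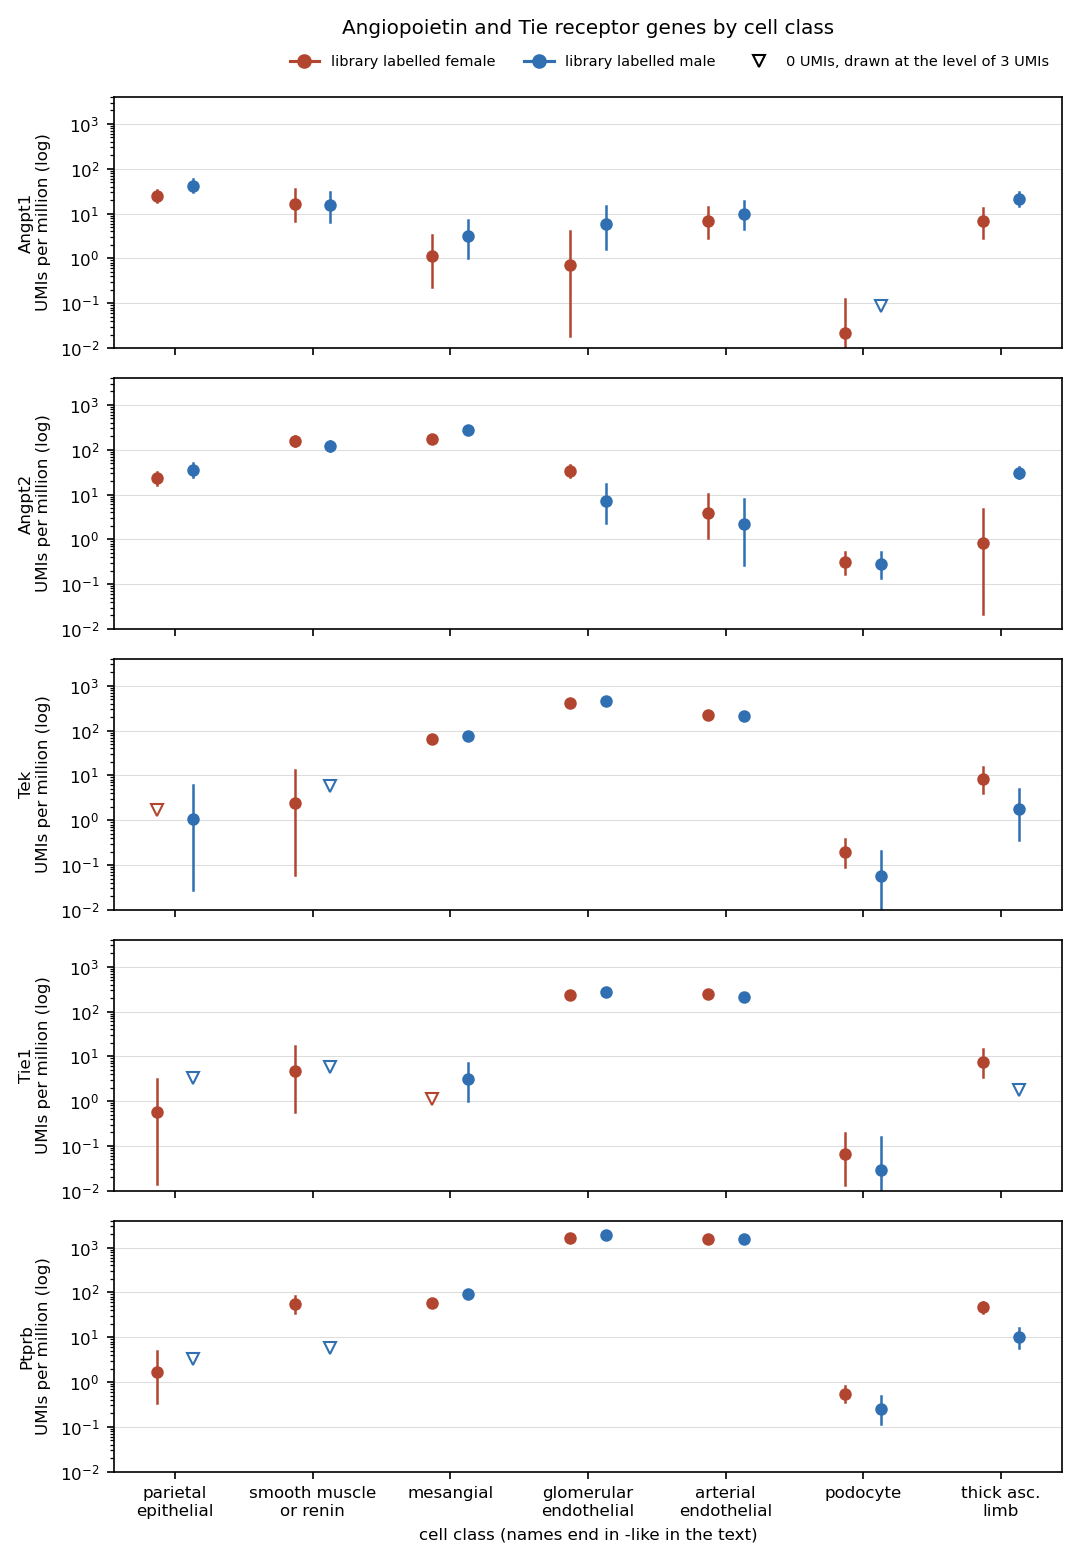
Level of each gene (CPM of the class, log axis) in 7 cell classes. Points are single libraries, lines are 95% Poisson intervals, which run off the axis for 1 or 2 UMIs, and open triangles mark classes with 0 UMIs at the level that 3 UMIs would give. Angpt2 stands at 174.7 CPM (label female) and 274.5 CPM (label male) in mesangial-like cells, and Tek, Tie1 and Ptprb peak in the endothelial classes.

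Angpt1, the activating ligand, was lowest in podocyte-like cells and had its highest level in parietal epithelial-like cells, which line Bowman's capsule. Podocyte-like cells held 1 UMI in 3635 cells (0.0218 CPM) of the library labelled female and 0 UMIs in 3137 cells of the library labelled male, where 0 counts allow up to 0.0855 CPM. Parietal epithelial-like cells held 25.3 CPM (18.5 to 33.9; 45 UMIs) in the library labelled female and 42.3 CPM (30.1 to 57.8; 39 UMIs) in the library labelled male. These few cells carried 42.5% and 30.5% of all Angpt1 UMIs of their libraries. A UMI of Angpt1 was seen in 31.9% and 51.0% of parietal epithelial-like cells, against 0.0275% and 0% of podocyte-like cells. The median cell held 17728 and 14537 UMIs in parietal epithelial-like cells, against 11016 and 10071 UMIs in podocyte-like cells. With each cell thinned to 3000 UMIs the parietal epithelial-like shares were 9.72% and 8.16%.

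Smooth muscle or renin-like cells followed with 16.8 CPM (6.74 to 34.5; 7 UMIs) in the library labelled female and 15.2 CPM (6.58 to 30.0; 8 UMIs) in the library labelled male. Mesangial-like cells held 1.14 CPM (3 UMIs) and 3.11 CPM (5 UMIs), glomerular endothelial-like cells 0.728 CPM (1 UMI) and 5.82 CPM (4 UMIs), and arterial endothelial-like cells 6.94 CPM (7 UMIs, 5 of them in 1 cell) and 10.0 CPM (9 UMIs). Thick ascending limb-like cells held 6.76 and 21.5 CPM, and 1 cell of the library labelled male carried 10 of its 37 UMIs. In the order of levels, parietal epithelial-like cells were separated from smooth muscle or renin-like cells by their intervals in 1 of the 2 libraries. The next neighbours down to mesangial-like cells overlapped in both libraries, and mesangial-like cells lay above podocyte-like cells in both. An unnamed cluster led by Cst12, Lsp1, Dkk3 and Igfbp6, in which all 11 podocyte markers counted, held Angpt1 at 14.4 and 14.3 CPM (32 UMIs in 153 cells and 22 UMIs in 126 cells). Gm17473, an antisense gene that overlaps Angpt1, had 1 UMI in all 7 classes and both libraries together.

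Angpt2, the context-dependent ligand, was concentrated in mesangial-like cells, the pericyte-like cells between the capillary loops. Its level there was 174.7 CPM (159.1 to 191.5; 458 UMIs) in the library labelled female and 274.5 CPM (249.5 to 301.3; 442 UMIs) in the library labelled male, and these cells carried 70.5% and 69.6% of all Angpt2 UMIs. Smooth muscle or renin-like cells held 155.6 CPM (120.1 to 198.3) and 120.0 CPM (92.2 to 153.5). These classes overlapped in the library labelled female and were separated in the library labelled male. Parietal epithelial-like cells held 23.1 CPM (16.6 to 31.3) and 35.8 CPM (24.6 to 50.2), and podocyte-like cells 0.305 and 0.285 CPM.

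Cell by cell, an Angpt2 UMI was seen in 73.8% and 82.8% of mesangial-like cells of the libraries labelled female and male, in 61.4% and 58.1% of smooth muscle or renin-like cells and in 0.358% and 0.319% of podocyte-like cells. After thinning to 3000 UMIs the shares were 38.8% and 48.3% in mesangial-like cells and 43.2% and 27.4% in smooth muscle or renin-like cells, so their order differed between the libraries. Among mesangial-like cells, 71 of 240 and 71 of 174 held 3 UMIs or more, and no cell held more than 13. The Angpt2 signal of mesangial-like cells was therefore spread over most cells of the class. Both ligands were seen in the same cell in 10 of 72 and 13 of 49 parietal epithelial-like cells. Mcph1, a gene on the other strand that overlaps Angpt2, ran from 4.42 to 8.73 CPM in the library labelled female and from 3.36 to 12.4 CPM in the library labelled male over the 7 classes. Its level in mesangial-like cells was 8.39 CPM in the library labelled female and 12.4 CPM in the library labelled male, the highest of the 7 classes only in the library labelled male. Whether reads were counted by strand is not stated in the labels or headers, so reads of overlapping genes cannot be told apart.

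Lower Angpt2 levels rested on few cells. In glomerular endothelial-like cells Angpt2 was at 33.5 CPM (24.5 to 44.6) in the library labelled female and 7.27 CPM (2.36 to 17.0) in the library labelled male, and the 46 UMIs of the library labelled female lay in 7 of 112 cells, with 17 in 1 cell. In that library mesangial genes moved with it: 6 mesangial genes stood at 10.8 to 21.1% of their mesangial-like level in glomerular endothelial-like cells, against 0.0444 to 1.94% in the library labelled male. Of the 9 mesangial markers, 8 and 0 were at 50 CPM or more there, with summed levels of 2042 and 72.7 CPM. Leaving out the 5 cells with 2 or more UMIs of Pdgfrb, the mesangial receptor for PDGF-B, gave 3.79 CPM (1.03 to 9.70; 4 UMIs in 3 of 107 cells) in the library labelled female, against an unaltered 7.27 CPM in the library labelled male. Thick ascending limb-like cells held 0.845 CPM (1 UMI) and 30.8 CPM, and 20 of the 53 UMIs of the library labelled male lay in 1 cell. Arterial endothelial-like cells held 3.97 CPM (4 UMIs) and 2.23 CPM (2 UMIs).

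**Figure D2:**
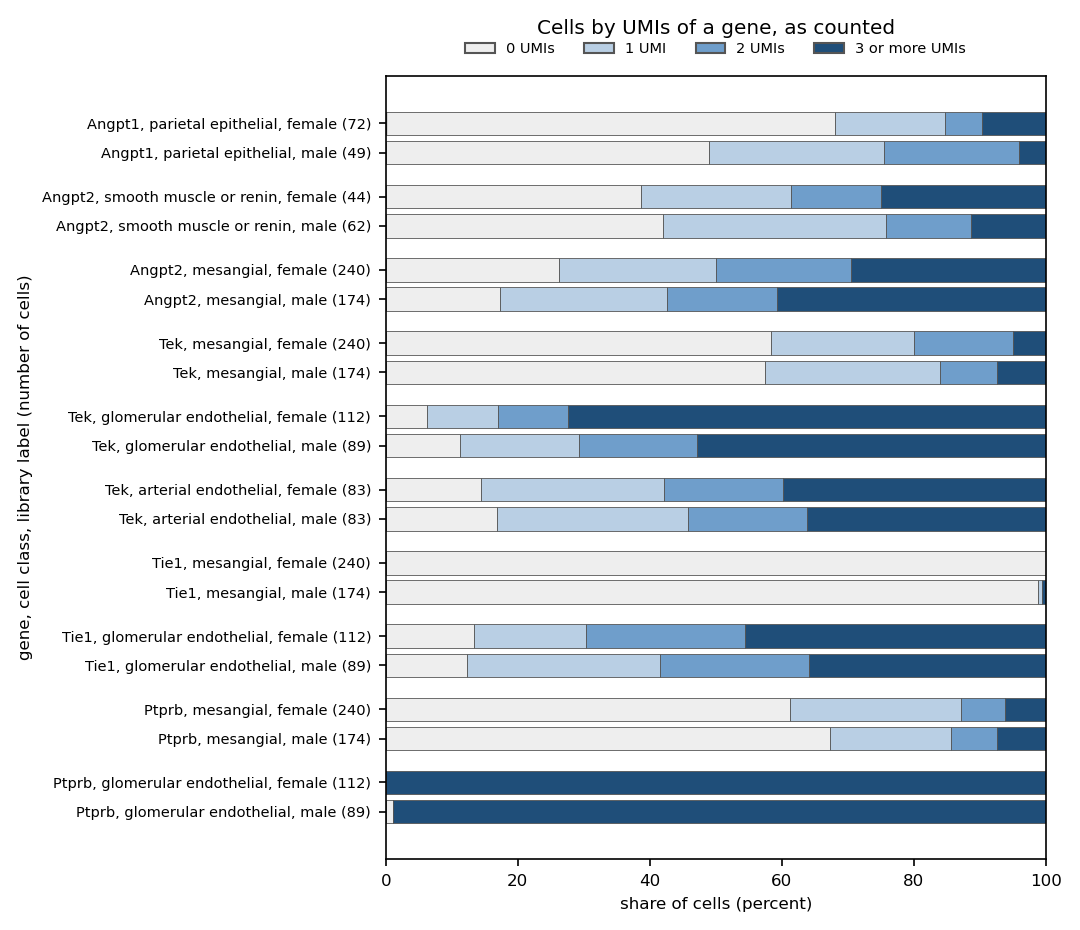
Share of cells (percent) with 0, 1, 2 and 3 or more UMIs of a gene, as counted, for selected genes and cell classes; each bar is 1 library and the number of cells is in brackets. Tie1 has 0 UMIs in all 240 mesangial-like cells of the library labelled female, where 41.7% of cells hold Tek.

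The promoters of both receptor genes are shown because Tek and Tie1 share the endothelium but not the mesangium in these data, and because ETS factors, which bind a GGAA core, are known regulators of endothelial genes. Sequences are those of RefSeq for GRCm38.p6, from 250 bases before to 50 bases after the annotated start and in the direction of the gene: Tek on chr4:94739039-94739338 (plus strand) and Tie1 on chr4:118489800-118490099 (minus strand). The GENCODE gene given above begins upstream of the RefSeq start of Tie1, so most of the Tie1 window lies inside that gene, while the start of Tek is the same in both annotations. Capitals mark GGAA and its reverse complement TTCC.
Tek: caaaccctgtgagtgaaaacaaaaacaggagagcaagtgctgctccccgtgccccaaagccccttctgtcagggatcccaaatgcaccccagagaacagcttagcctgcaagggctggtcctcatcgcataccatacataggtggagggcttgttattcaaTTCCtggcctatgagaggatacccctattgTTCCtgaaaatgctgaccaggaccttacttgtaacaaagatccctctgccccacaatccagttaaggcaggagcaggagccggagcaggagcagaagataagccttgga
Tie1: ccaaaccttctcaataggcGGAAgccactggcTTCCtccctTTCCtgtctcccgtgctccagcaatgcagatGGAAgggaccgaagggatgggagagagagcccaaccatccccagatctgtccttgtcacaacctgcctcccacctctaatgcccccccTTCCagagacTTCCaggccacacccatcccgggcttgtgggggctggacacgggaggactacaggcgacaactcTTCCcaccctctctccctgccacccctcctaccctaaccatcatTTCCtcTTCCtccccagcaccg
On both strands together the Tek window held 2 such matches and the Tie1 window 9, none of them overlapping. Of 32851 mouse promoters of the same length, 96.0% held at least 1, the median was 3, 84.6% held at least 2 and 1.59% held at least 9. A match is a run of letters and not a shown binding site. The other members were not matched in the promoter table.

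Tek, the receptor gene, was highest in glomerular endothelial-like cells, at 408.2 CPM (375.1 to 443.4; 561 UMIs) in the library labelled female and 459.7 CPM (410.4 to 513.3; 316 UMIs) in the library labelled male. Arterial endothelial-like cells held 223.0 CPM (194.9 to 254.2) and 214.0 CPM (184.8 to 246.5), and these neighbours were separated in both libraries. The ratio of glomerular to arterial endothelial-like cells was 1.83 (1.57 to 2.15) and 2.15 (1.79 to 2.58). A Tek UMI was seen in 93.8% and 88.8% of glomerular endothelial-like cells, against 85.5% and 83.1% of arterial endothelial-like cells and 0.248% and 0.0638% of podocyte-like cells. The ratio between the endothelial classes depended on the cells taken as arterial. At a finer clustering the arterial endothelial-like cluster held 66 and 66 cells with Tek at 278.5 and 253.3 CPM, and the mean log2 ratio was 0.69, against 0.96 with all 83 and 83 cells. With a mitochondrial limit of 10% it was 0.42. The finer clustering also formed an unnamed cluster of 17 and 17 cells, led by Fabp4, Gpihbp1, Emcn and Ptprb. All 11 podocyte markers counted in it, and it was left unnamed because its leading genes held more glomerular endothelial markers. Whether its cells came from the arterial endothelial-like class was not tested. The podocyte markers in arterial endothelial-like cells are given above, and haemoglobin and other erythroid markers summed to 4684 and 6503 CPM in glomerular endothelial-like cells, against 103.1 and 17.8 CPM in arterial endothelial-like cells. Their part in the ratio was not tested.

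Mesangial-like cells were the next class for Tek, at 66.4 CPM (56.9 to 77.0; 174 UMIs) in the library labelled female and 75.8 CPM (62.9 to 90.5; 122 UMIs) in the library labelled male. They were below arterial endothelial-like cells and above every remaining class in both libraries. A Tek UMI was seen in 100 of 240 (41.7%) and 74 of 174 (42.5%) mesangial-like cells, and in 17.1% and 17.2% after thinning to 3000 UMIs. Of the 240 and 174 mesangial-like cells 12 and 13 held 3 Tek UMIs or more, and the largest number in 1 cell was 10 and 6. Smooth muscle or renin-like cells, the neighbouring mural class, held 1 UMI of Tek in 44 cells (2.39 CPM) and 0 UMIs in 62 cells, which allows up to 5.71 CPM. Thick ascending limb-like cells held 8.45 and 1.74 CPM, from 2 cells and 1 cell, parietal epithelial-like cells 0 CPM, which allows up to 1.69 CPM, and 1.08 CPM, and podocyte-like cells 0.196 CPM (9 UMIs) and 0.0570 CPM (2 UMIs).

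Cdh5, Pecam1, Kdr, Flt1, Egfl7 and Emcn did not accompany Tek in mesangial-like cells to the same degree, while Esam and Eng stood above it. Set against its own level in glomerular endothelial-like cells, Tek stood at 16.3% and 16.5% in mesangial-like cells of the libraries labelled female and male. Cdh5, the gene of VE-cadherin, stood at 0% and 0.898%, Pecam1 at 0.194% and 1.03%, the VEGF receptor genes Kdr at 0.106% and 2.10% and Flt1 at 0.626% and 2.84%, and Egfl7 and Emcn at 2.60% and 4.60% and at 3.596% and 4.49%. Kdr and Emcn are also markers that named glomerular endothelial-like cells, so their low shares are in part fixed by the naming. Esam and Eng, which encode a junctional adhesion molecule and a TGF-beta co-receptor, stood higher, at 24.2% and 29.9% and at 59.0% and 60.5%. Of the 100 and 74 mesangial-like cells with a Tek UMI, 0 and 2 also held a Cdh5 UMI. In the 156 and 108 mesangial-like cells with no UMI of Pecam1, Cdh5, Kdr, Flt1 and Egfl7, Tek was at 58.6 CPM (47.1 to 72.2) and 64.4 CPM (48.2 to 84.2). The Tek level in mesangial-like cells was thus of like size without the cells that carried those 5 endothelial genes, which do not include Esam, Eng and Emcn. The source of these Tek UMIs was not tested.

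**Figure D3:**
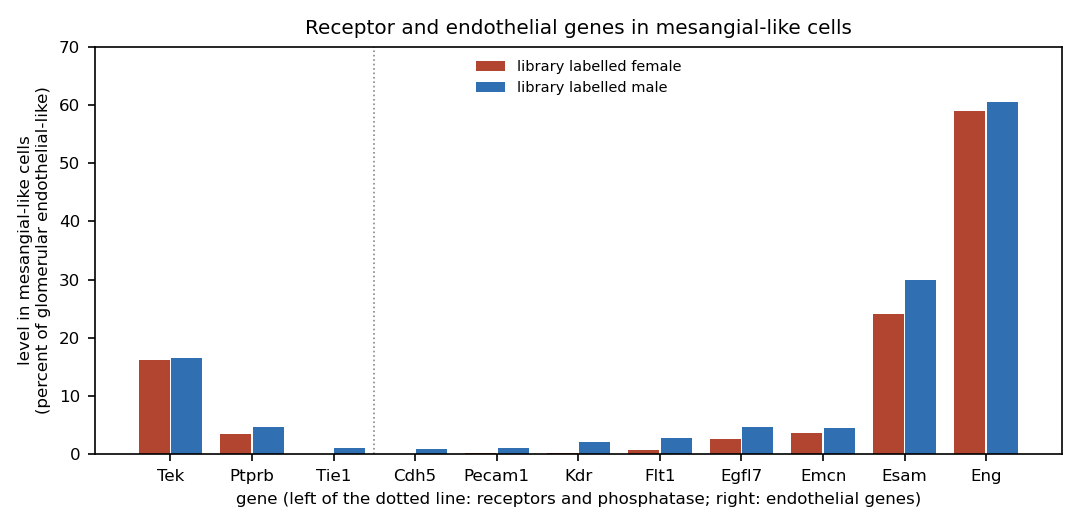
Level of each gene in mesangial-like cells as a percentage of its level in glomerular endothelial-like cells of the same library; bars are single libraries. Tek stands at 16.3% (label female) and 16.5% (label male), while Tie1, Cdh5, Pecam1 and Kdr stand at 0 to 2.10%, and Esam and Eng at 24.2 to 60.5%.

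Tie1, the partner receptor gene, was at like levels in both endothelial classes. Glomerular endothelial-like cells held 235.7 CPM (210.8 to 262.9; 324 UMIs) in the library labelled female and 279.3 CPM (241.2 to 321.7; 192 UMIs) in the library labelled male, and arterial endothelial-like cells 244.9 CPM (215.3 to 277.4) and 208.4 CPM (179.6 to 240.5). The intervals of these classes overlapped in the library labelled female and were separated, by a narrow gap, in the library labelled male, with glomerular over arterial ratios of 0.963 (0.813 to 1.14) and 1.34 (1.09 to 1.65). At the finer clustering the 66 and 66 arterial endothelial-like cells held Tie1 at 311.1 and 269.5 CPM, so these ratios also depended on the cells taken as arterial. A Tie1 UMI was seen in 86.6% and 87.6% of glomerular endothelial-like cells, against 91.6% and 75.9% of all arterial endothelial-like cells. In the other 5 classes followed Tie1 was low: mesangial-like cells held 0 UMIs in 240 cells, which allows up to 1.14 CPM, and 5 UMIs in 2 of 174 cells (3.11 CPM). Without the 2 mesangial-like cells of the library labelled male that held 2 or more Pecam1 UMIs, Tie1 had 0 UMIs in 172 cells. Podocyte-like cells held 3 UMIs (0.0653 CPM) and 1 UMI (0.0285 CPM). In smooth muscle or renin-like cells Tie1 had 2 UMIs in 1 cell (4.79 CPM) and 0 UMIs, in thick ascending limb-like cells 9 UMIs in 2 cells (7.60 CPM) and 0 UMIs, and in parietal epithelial-like cells 1 UMI (0.563 CPM) and 0 UMIs. A small unnamed cluster of 23 and 11 cells, led by the cell cycle genes Cenpf, Mki67 and Prc1 and scoring best for mesangial markers, held more of it, at 140.7 CPM (41 UMIs in 9 cells) in the library labelled female and 58.3 CPM (11 UMIs in 4 cells) in the library labelled male. That cluster also held Tek at 96.1 and 63.6 CPM and Ptprb at 490.7 and 286.0 CPM, with Ptprb in 11 of 23 and 8 of 11 cells. Its mesangial score, the mean of marker levels relative to their highest cluster, was 0.445, against 1.0 in the mesangial-like cluster. Which cell types it holds was not tested.

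Ptprb, the phosphatase gene, was found in nearly every endothelial cell. Its level was 1664 CPM (1596 to 1734) and 1958 CPM (1855 to 2066) in glomerular endothelial-like cells of the libraries labelled female and male, against 1545 CPM (1470 to 1624) and 1586 CPM (1505 to 1671) in arterial endothelial-like cells. The ratio of these classes was 1.08 (1.01 to 1.15) and 1.23 (1.15 to 1.33). At the finer clustering the 66 and 66 arterial endothelial-like cells held Ptprb at 1973 and 2024 CPM, above the glomerular endothelial-like levels. The direction of the ratio thus depended on the cells taken as arterial. A Ptprb UMI was seen in 100% and 98.9% of glomerular endothelial-like cells, and in 95.5% and 98.9% after thinning. The median cell of that class held 17 and 13 UMIs.

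Mesangial-like cells held Ptprb at 57.6 CPM (48.8 to 67.6; 151 UMIs) in the library labelled female and 90.0 CPM (76.0 to 105.9; 145 UMIs) in the library labelled male, which is 3.46% and 4.60% of the glomerular endothelial-like level. A Ptprb UMI was seen in 38.8% and 32.8% of mesangial-like cells, and in 10.8% and 19.5% after thinning, against 0.633% and 0.287% of podocyte-like cells as counted. A single cell of the library labelled male held 40 of the 145 UMIs. Without the cells that held 2 or more Pecam1 UMIs the levels were 57.6 and 61.2 CPM, and in the cells with no UMI of the 5 endothelial genes they were 57.3 CPM (45.9 to 70.7) and 51.0 CPM (36.8 to 69.0). Of the 100 and 74 mesangial-like cells with Tek, 45 and 27 also held Ptprb (45% and 36.5%), against 34.3% and 30.0% of the mesangial-like cells without Tek. Deeper cells hold more UMIs of every gene, and after thinning the shares were 12.2% and 23.3% with Tek, against 10.6% and 18.8% without it.

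In the remaining classes Ptprb rested on few cells. Smooth muscle or renin-like cells held 55.1 CPM (34.9 to 82.6) in the library labelled female and 0 CPM in the library labelled male, and all 23 UMIs lay in 2 of 44 cells. Those 2 cells each held 2 or more Pecam1 UMIs, and without them Ptprb had 0 UMIs in 42 cells. Thick ascending limb-like cells held 46.5 CPM (55 UMIs in 2 cells) and 9.88 CPM (17 UMIs in 4 cells), and podocyte-like cells 0.544 and 0.257 CPM.

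**Figure D4:**
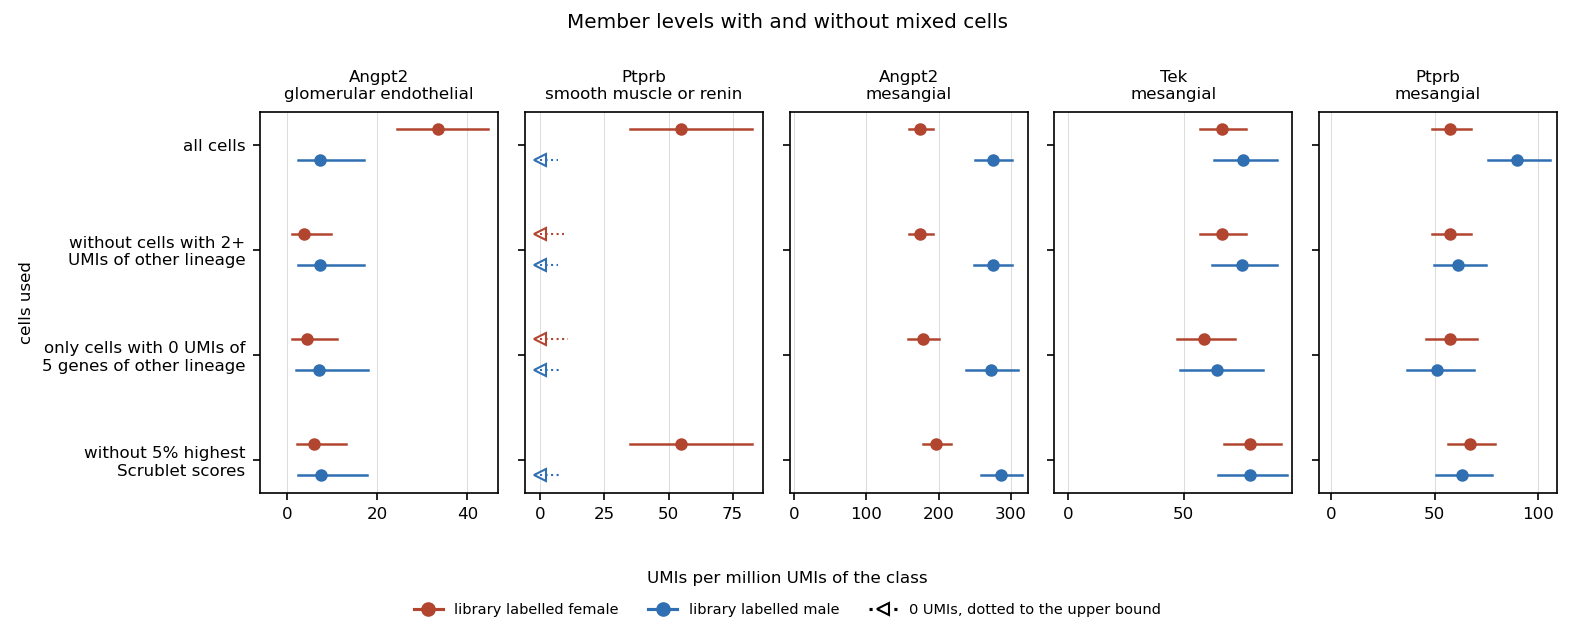
Level (CPM of the class) of 5 gene and class pairs in all cells, without cells with 2 or more UMIs of Pdgfrb (endothelial classes) or Pecam1 (other classes), in cells with 0 UMIs of 5 genes of the other lineage, and without the 5% highest Scrublet scores. Points are single libraries, lines are 95% Poisson intervals and open triangles are counts of 0. Angpt2 in the glomerular endothelial-like cells labelled female stands at 3.79 CPM without 5 cells, against 33.5 CPM with them, and the mesangial-like levels of Tek stay between 58.6 and 78.9 CPM.

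Ratios between classes were taken within each library as log2 of CPM plus 10, and a gene was called where it differed by 2-fold or more in the same direction in both libraries, among genes that reached 20 CPM in at least 1 of the classes in each library. This scale understates the change of genes with low levels. No p-value is given, because the classes were formed from the same counts and each label has 1 library. Between glomerular endothelial-like and podocyte-like cells 3 of the 5 genes met the level limit and all 3, Tek, Tie1 and Ptprb, were higher in glomerular endothelial-like cells. The background of all 7202 genes was 16.8% called higher and 10.7% called lower. In the libraries labelled female and male Tek was 2084-fold (1090 to 4581) and 8065-fold (2214 to 66890) higher, Tie1 3610-fold (1224 to 17600) and 9801-fold (1738 to 389100), and Ptprb 3058-fold (2066 to 4735) and 7634-fold (4010 to 16730). Between mesangial-like and podocyte-like cells Angpt2, Tek and Ptprb met the limit and all 3 were higher in mesangial-like cells, against 14.6% of genes called higher and 8.33% called lower. Angpt2 was 573-fold (338 to 1057) and 963-fold (519 to 2023) higher there, and Tek 339-fold (174 to 753) and 1329-fold (360 to 11100).

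Between mesangial-like and glomerular endothelial-like cells 4 genes met the limit. Angpt2 was higher in mesangial-like cells, 5.22-fold (3.85 to 7.23) in the library labelled female and 37.7-fold (16.1 to 116.8) in the library labelled male, and Tek, Tie1 and Ptprb were lower, against 9.01% of genes called higher and 9.09% called lower. Without the 5 glomerular endothelial-like cells with Pdgfrb UMIs described above, Angpt2 in the library labelled female stood at 174.7 CPM in mesangial-like cells, against 3.79 CPM in glomerular endothelial-like cells, so the 5.22-fold rests on those cells. Angpt2 and its receptor gene Tek thus differed in opposite directions between these neighbouring classes. Between smooth muscle or renin-like and mesangial-like cells Tek alone of 3 genes was called, lower in smooth muscle or renin-like cells, against 4.72% of genes called higher and 7.02% called lower. Tek was 27.7-fold lower there in the library labelled female (4.91 to 1101). In the library labelled male, where Tek had 0 UMIs in smooth muscle or renin-like cells, its interval began at 10.6-fold lower. With those 0 UMIs taken as 3, Tek was 13.3-fold lower. Ptprb was also called lower in that contrast without the 2 smooth muscle or renin-like cells and 2 mesangial-like cells with Pecam1 UMIs, with a mean log2 ratio of -2.80, and Angpt1 was called higher after thinning, at 1.49. Between glomerular and arterial endothelial-like cells none of the 3 genes tested was called at 2-fold, against 4.14% of genes called higher and 4.5% called lower. Tek was called at 1.5-fold, but the share of all genes called at that fold is not given here.

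Between the libraries, the library labelled female was set over the library labelled male within each class, and a gene was called past 1.5-fold with its interval off 1. Of 25 gene and class pairs 12 met the level limit, 2 were called higher and 1 lower. In mesangial-like cells 1 of 3 genes was called, against 5.82% of all genes: Angpt2, with a ratio of 0.637 (0.557 to 0.727) between 174.7 and 274.5 CPM. That call was lost without the 5% highest Scrublet scores (log2 ratio -0.52) and with the mean of per-cell levels (-0.54), and the direction was kept in every alternative run. Podocyte markers summed to 3788 and 1726 CPM in the mesangial-like cells of these libraries, and their part in the ratio was not tested. Tek had a ratio of 0.876 (0.691 to 1.11) and Ptprb of 0.640 (0.506 to 0.809) in mesangial-like cells, and neither was called. Its log2 ratio was called at -0.85 after thinning, at -0.62 with a mitochondrial limit of 50% and at -0.64 with a prior of 1 CPM, and it was -0.08 without the 2 cells with Pecam1 UMIs and 0.08 without the 5% highest Scrublet scores. In glomerular endothelial-like cells 1 of 4 genes was called, against 9.6% of all genes: Angpt2, with a ratio of 4.60 (1.84 to 14.8), which rested on the 5 cells described above and had a log2 ratio of -0.32 without them. In smooth muscle or renin-like cells 1 of 2 genes was called, against 8.58% of all genes: Ptprb, whose 23 UMIs lay in 2 cells.

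In arterial endothelial-like cells none of 3 genes was called between the libraries, against 5.64% of all genes, although Tie1 was called higher in the library labelled female after thinning (log2 ratio 0.60), and in podocyte-like cells, with 1.05% of all genes called, no member reached the level limit. Tek, Tie1 and Ptprb had ratios of 0.888 (0.772 to 1.02), 0.844 (0.704 to 1.01) and 0.850 (0.794 to 0.910) in glomerular endothelial-like cells. In arterial endothelial-like cells the same ratios were 1.04 (0.856 to 1.27), 1.18 (0.968 to 1.43) and 0.974 (0.906 to 1.05). The 6 endothelial ratios of the receptors and the phosphatase ran from 0.844 to 1.18 in all counts, without thinning.

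Likeness of pattern was measured as Pearson's r of log2 of CPM plus 10 over 14 points, 7 classes in each of 2 libraries, among 5412 genes at 50 CPM or more in some class in both libraries. The points share libraries and cells, and r is a description only. The genes most like Angpt2 were Dock10 (0.959), Cpm (0.947), Col12a1 (0.940), C1s1 (0.939) and Gucy1b1 (0.935). Those most like Tek were Arhgef15 (0.998), the ETS factor gene Fli1, Srgn, Icam2 and Slfn2. Those most like Tie1 were Cdh5 (0.997), Adgrl4, Mest, Mfng and Palmd, and those most like Ptprb were Egfl7 (0.99), Myct1, Afap1l1, Flt1 and S1pr1. Tek had an r of 0.892 with Tie1 and 0.956 with Ptprb, and Tie1 and Ptprb had 0.951. Angpt2 had an r of -0.08 with Tek, and Angpt1 did not reach the level limit.

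Genes around the receptors were described from 6 lists. Of 10 endothelial transcription factor genes, all 10 were called higher in glomerular endothelial-like than in podocyte-like cells, where 16.8% of all genes were, with a median log2 ratio of 3.597, against 0.00 over all genes tested. In mesangial-like cells 8 of the 10 were called lower than in glomerular endothelial-like cells, where 9.09% of all genes were, with a median of -2.66, against 0.05. Erg, an ETS factor gene of the endothelium, had 0 and 1.24 CPM in mesangial-like cells of the libraries labelled female and male, against 104.0 and 101.8 CPM in glomerular endothelial-like cells. Sox17, an arterial transcription factor gene and one of the markers that named arterial endothelial-like cells, had 0 and 1.86 CPM, against 150.6 and 193.5 CPM. Against podocyte-like cells, 3 of 6 tested factor genes were called higher in mesangial-like cells, against 14.6% of all genes: Epas1, which encodes the hypoxia factor HIF-2alpha, at 1221 and 1510 CPM, against 30.0 and 31.2 CPM; Ets1 at 886.4 and 1073 CPM, against 66.3 and 69.6 CPM; and Fli1 at 45.8 and 63.3 CPM, against 0.0871 and 0.0285 CPM. Mesangial-like cells thus held transcripts of these 3 factors, while Erg and Sox17 were near 0 there.

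VE-PTP partners at the junction followed the phosphatase in part. All 6 were called higher in glomerular endothelial-like than in podocyte-like cells (median log2 ratio 3.51), against 16.8% of all genes, and 4 of 6 were called lower in mesangial-like than in glomerular endothelial-like cells (median -1.49), against 9.09% of all genes. Fgd5, a guanine nucleotide exchange factor gene of the endothelium, was at 106.4 and 101.8 CPM in mesangial-like cells of the libraries labelled female and male, against 0.109 and 0.0855 CPM in podocyte-like cells. Kdr was at 2510 and 2186 CPM in glomerular endothelial-like cells, against 222.1 and 328.8 CPM in arterial endothelial-like cells. Kdr is one of the markers that named glomerular endothelial-like cells, so its contrasts with other classes are in part fixed by the naming. Between the same endothelial classes Ptprb, which named no class, differed 1.08-fold and 1.23-fold at the main clustering.

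Genes downstream of Tie2 were called in both directions. Of 16 Tie2 adaptor and kinase genes, 13 were tested between glomerular endothelial-like and podocyte-like cells, with 3 called higher and 3 lower (median 0.44), against 16.8% and 10.7% of all genes. Between mesangial-like and glomerular endothelial-like cells 13 were tested, with 3 called higher and 1 lower (median 0.42), against 9.01% and 9.09%. Pik3r1, the regulatory subunit gene of PI3-kinase, was at 771.6 and 952.6 CPM in mesangial-like cells of the libraries labelled female and male, against 157.9 and 82.9 CPM in glomerular endothelial-like cells. Foxo1, the transcription factor gene that Akt restrains downstream of Tie2, was at 204.5 and 212.4 CPM in glomerular endothelial-like cells, against 21.6 and 17.2 CPM in podocyte-like cells. It was called higher there, while Foxo3 was called lower, with log2 ratios of -1.004 and -1.19. Of 5 shedding and co-receptor genes, 2 were called higher and 1 lower in glomerular endothelial-like than in podocyte-like cells, in the contrast with 16.8% and 10.7% of all genes called.

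Other ligands and Tie-binding proteins were mostly low. Of 9 listed genes only Angptl2 met the level limit between glomerular endothelial-like and podocyte-like cells, and it was called lower, with 33.5 CPM (46 UMIs) for the label female and 7.27 CPM (5 UMIs) for the label male, against 691.9 and 706.0 CPM in podocyte-like cells. These UMI numbers equal those of Angpt2 in the same cells, although the genes are counted apart and differ in every other class. Angptl4, an inhibitor of lipoprotein lipase, was called higher in mesangial-like than in podocyte-like cells, at 209.4 and 79.5 CPM, against 17.2 and 4.08 CPM. Angpt4, the remaining angiopoietin gene of the mouse, stayed below the level limit in these contrasts and is named after its values were seen. It was at 10.1 and 6.50 CPM in parietal epithelial-like cells, at 26.3 CPM (11 UMIs) and 1.90 CPM (1 UMI) in smooth muscle or renin-like cells and at 0 UMIs in podocyte-like cells of both libraries.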

How the data were processed

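The deposited values are raw UMI counts per gene and barcode, whole numbers that were not normalized, per the file headers and the values. Cell Ranger 6.1.2, STAR 2.7.5a and mm10 are named in the submitters' processing notes. The calling of cells and the use of strand are not stated in the sources used here. Coordinates come from GENCODE M21 of GRCm38 and promoters from RefSeq (2 of 5 genes matched).

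Barcodes with over 20% mitochondrial UMIs or under 500 genes were left out. Scrublet called 4 cells (label female) and 1 cell (label male), under 0.5%, so it has not worked here, and mixed cells remain. Cells were scaled to 10000 UMIs, log transformed, reduced to 30 components of 2000 variable genes without the 5 genes described, and clustered (scanpy 1.11.5, leidenalg 0.10.2, resolution 1.0, 20 neighbours). Of 21 marker lists, the pan-endothelial list served as a check only and the cell cycle list gave no name. A cluster took the best-scoring name where 3 or more markers counted and its leading genes did not go against it. A marker counted in over 20% of cells, at 50 CPM or more and at over 2-fold its lower quartile over all clusters. That naming rule was set after clusters were seen, and a rebuilt name may differ from the study's.

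UMIs were summed per class and library. Intervals are exact Poisson, exact binomial (Clopper-Pearson) and, for ratios, exact conditional binomial, at 95%. A count of 0 was taken to allow 3 counts, which is below the upper end of the exact Poisson interval. For Tek in smooth muscle or renin-like cells of the library labelled male these were 5.71 and 7.025 CPM. The depth per class was 45941770 UMIs (label female) and 35090454 UMIs (label male) in podocyte-like cells, but 1374398 UMIs (label female) and 687420 UMIs (label male) in glomerular endothelial-like cells. Each label has 1 library, so no test between labels was possible. The calling of ratios was tested on simulated data before use. All 5 genes are named whatever their values. From each pathway list at most the 4 genes with the largest ratio in a contrast are named, and likeness is given for the 5 highest r. The members, lists and contrasts were chosen with earlier results of these data known.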

Additional observations from a re-analysis of the deposited data

Results flagged for a closer look

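Tie1 had a ratio of glomerular over arterial endothelial-like cells of opposite sign in the libraries, with a log2 ratio of CPM plus 10 of -0.053 for the label female and 0.41 for the label male. The interval of the plain ratio held 1 for the label female (0.813 to 1.14) but not for the label male (1.09 to 1.65). At the finer clustering arterial endothelial-like cells held Tie1 at 311.1 and 269.5 CPM, against 235.7 and 279.3 CPM in glomerular endothelial-like cells. The difference between the libraries was not tested, since each label has 1 library. Arterial endothelial-like cells held podocyte markers in both libraries, and their part in the Tie1 ratio was not tested.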

How the results depend on the processing

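Levels, ratios between classes and ratios between libraries were recomputed under other mitochondrial limits, clusterings, namings, priors, level limits and folds, after thinning, and without mixed cells. The use of unnamed clusters with podocyte markers as podocyte-like, and of only cells with no UMI of 5 genes of the other lineage, were chosen after seeing the data. Members called between smooth muscle or renin-like and mesangial-like cells came to 2 (against 1) under 3 alternatives. The gain was Ptprb, lower, without cells with UMIs of the other lineage (-2.80) and in cells with no UMI of 5 such genes (-2.68), but Angpt1, higher, after thinning (1.49). Between glomerular and arterial endothelial-like cells 1 (against 0), Tek, was called at 1.5-fold, a fold for which the share of all genes is not given. Between the libraries 1 pair (against 3) was called without the 5% highest Scrublet scores, without cells with UMIs of the other lineage, in cells with no UMI of 5 such genes and with the mean of per-cell CPM. In all, 2 log2 ratios between the libraries reversed or vanished. Angpt2 in glomerular endothelial-like cells (1.33) became -0.14 without the highest Scrublet scores, -0.32 without cells with UMIs of the other lineage, -0.24 in cells with no UMI of 5 such genes, -0.13 after thinning and -0.043 with the mean of per-cell CPM. Ptprb in smooth muscle or renin-like cells (2.702) became 0 without cells with UMIs of the other lineage and in cells with no UMI of 5 such genes. Some of these alternatives leave out cells, while thinning to 3000 UMIs and the per-cell mean weight cells differently. The cause was not tested. Tie1 in arterial endothelial-like cells was called after thinning (0.60).

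No paired analysis was possible because each label has 1 library. At resolution 0.5 no class was named glomerular or arterial endothelial-like, so no value was had there. Depth limits Angpt1 most, with 106 UMIs (label female) and 128 UMIs (label male) in all kept cells, and podocyte-like levels of all 5 genes rest on 25 UMIs or fewer per library. Differences between animals cannot be told apart from differences between libraries. The arterial endothelial-like class carried podocyte markers, and its levels moved with the clustering.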
